A study of Homo sapiens with 8 samples.

Results

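The 9 genes described here encode the non-collagen core of the basement membrane as it appears in a table of ribosome-bound messenger RNA from lung cancer cells. They are the laminin chain genes LAMA3, LAMA5, LAMB1, LAMB2, LAMB3 and LAMC1, the heparan sulfate proteoglycan genes AGRN (agrin) and HSPG2 (perlecan), and NID1 (nidogen-1). They were chosen by name, as listed basement membrane genes, with earlier results of these data known, and are 9 of the 23368 genes in the table. The cells were H2030-BrM, a line derived from H2030 lung adenocarcinoma cells for its spread to the brain, and their RNA was recovered by translating ribosome affinity purification, in which an antibody against EGFP pulls down tagged ribosomes with the RNA on them. All groups carried the EGFP-Rpl10a transgene from a lentiviral vector. The control groups carried an shRNA against luciferase, and the knockdown groups an shRNA against L1CAM, an adhesion molecule of the immunoglobulin superfamily. Dish cells (0 h) grew in RPMI with serum on plastic, and slice cells spent 48 h on a cultured section of mouse brain in a different medium with less serum. The groups are called shControl_dish, shControl_slice, shL1CAM_dish and shL1CAM_slice, with 2 libraries each.

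A basement membrane is a thin sheet of matrix under epithelia and around blood vessels, muscle fibres and nerves. Each laminin is a trimer of an alpha, a beta and a gamma chain that polymerises at the cell surface and is held there by integrins and by dystroglycan. Nidogen links the laminin network to the collagen IV network, while agrin and perlecan carry heparan sulfate chains and connect laminin to receptors and growth factors. In the brain, the basement membrane of blood vessels is the surface along which metastatic cells spread when they grow on existing capillaries. LAMA3 and LAMB3 encode chains of the laminin of epithelial anchoring structures, and LAMA5, LAMB1 or LAMB2 and LAMC1 those of laminins found widely in epithelia and vessels.

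The values are normalized counts, that is reads of a gene divided by a size factor of the library, and between 13486212 and 16734651 reads per library stood behind them. L1CAM itself had normalized counts of 482 and 440.4 in shControl_dish and 126 and 88.3 in shL1CAM_dish. On the slice it had 451 and 438 with control shRNA and 74.7 and 65.4 with L1CAM shRNA, so it was lower in all 4 knockdown libraries than in all 4 controls. The log2 fold change of L1CAM was -2.11 ± 0.21 (SE) in the dish (limma adjusted p = 0.00865) and -2.65 ± 0.21 on the slice (adjusted p = 0.00164). Over 13 other settings of the fit the dish call held in 13 and the slice call in 12. The slice call was lost with only the 4 libraries compared (limma adjusted p = 0.318). The slice call of L1CAM held with any library left out, and the dish call was lost without any 1 of the 4 dish libraries (adjusted p up to 0.191, log2 fold change -2.37 to -1.86). Of 8 markers of an epithelial lung cancer line, KRT8 (3489 to 5865) and KRT18 (3460 to 6002) were abundant in every library and EPCAM ranged from 78.3 to 169. The markers KRT19 and SFTPB were at or near 0, and KRT7 (5.35 to 14.1) and NKX2-1 (3.21 to 16.5) were low. Replicate 2 of shL1CAM_slice stood apart: the log2 differences between the 2 replicates of its group had an SD over genes of 0.637, against 0.218 to 0.303 in the other groups. In that library the tenth of genes with the longest transcripts lay at a median of -0.68 on the log2 scale relative to their mean over the 8 libraries, and the tenth with the shortest at 0.52. Transcripts of the 8 tested basement membrane genes are long, from the 63.9th length percentile (LAMB3) to the 99.0th (HSPG2). Values with a transcript-length trend removed are therefore given for these 8 genes where they differ. Values of the related lists below are given without that removal.

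Levels of different genes can be compared only per length, so the normalized count was divided by the length of the longest transcript in kilobases. In shControl_dish LAMB1 was the most abundant of the 9 genes per kilobase, at 934 ± 75.9 (SD, n = 2), followed by LAMC1 at 687 ± 21.7 and AGRN at 603 ± 52.5. LAMB2 at 350.0 ± 29.7 and LAMA5 at 318 ± 7.91 came next, and their ranges of mean ± SD overlapped. LAMB3 stood at 277 ± 0.258, which is the 68.2nd percentile of the tested genes with a length, whose median was 135 per kilobase. HSPG2 at 38.0 ± 9.97 and LAMA3 at 35.5 ± 0.166 did not differ beyond their spread and lay at the 24.1st and 23.0th percentiles. NID1 came last at 1.39 ± 0.152. With the shorter LAMA3 transcript that starts inside the gene (5671 bases instead of 10661), LAMA3 came to 66.8 per kilobase and moved ahead of HSPG2.

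The chains of a class were unequal. LAMA5 made up 86.4% to 90.1% of the summed alpha chain levels per kilobase in the 8 libraries, and LAMA3 was most of the rest. These shares use the longest LAMA3 transcript. With the shorter one the share of LAMA3 would be larger and that of LAMA5 smaller. The beta chains were more mixed. LAMB1 held 59.8% ± 0.81 of them in shControl_dish, LAMB2 22.4% ± 0.39 and LAMB3 17.8% ± 1.19 (SD, n = 2). The share of LAMB3 was 18.6% and 17.0% in the shControl_dish libraries and 15.6% and 16.8% in shControl_slice. In shL1CAM_dish it was 6.37% and 6.82%, and in shL1CAM_slice 6.05% and 7.70%, so every knockdown library lay below every control library. LAMB1 exceeded LAMC1 per kilobase in each library, by a factor of 1.31 to 2.38. The factor was 1.31 to 1.51 in the dish libraries of both shRNAs, 1.82 and 1.71 in shControl_slice and 2.07 and 2.38 in shL1CAM_slice. The value of 2.38 came from replicate 2, the library with the transcript-length trend.

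The knockdown was read as L1CAM against control shRNA, in the dish and on the slice. LAMB3, the beta chain of the epithelial anchoring laminin, was the single gene of the 9 called in these comparisons, and it fell in both cultures. Its RefSeq promoter windows (GRCh38.p14, the 250 bases before an annotated start) are shown because LAMB3 was the gene that fell, beside LAMA3, its partner chain, and LAMB1, the main beta chain, neither of which was called. Capitals mark matches to TGANTCA, the AP-1 motif, searched on both strands. LAMB3 has 3 annotated starts, of which the outermost (chr1:209652426-209652675, minus strand) and the innermost (chr1:209651375-209651624, minus strand) are given. The LAMA3 window (chr18:23872770-23873019, plus strand) belongs to a start inside the gene, and the LAMB1 window is chr7:108003162-108003411 on the minus strand.
LAMB3 outermost start: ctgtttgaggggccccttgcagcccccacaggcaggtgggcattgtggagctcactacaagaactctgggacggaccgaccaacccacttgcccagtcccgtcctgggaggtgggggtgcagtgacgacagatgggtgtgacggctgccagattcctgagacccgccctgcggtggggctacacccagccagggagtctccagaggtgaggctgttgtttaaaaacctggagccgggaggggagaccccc
LAMB3 innermost start: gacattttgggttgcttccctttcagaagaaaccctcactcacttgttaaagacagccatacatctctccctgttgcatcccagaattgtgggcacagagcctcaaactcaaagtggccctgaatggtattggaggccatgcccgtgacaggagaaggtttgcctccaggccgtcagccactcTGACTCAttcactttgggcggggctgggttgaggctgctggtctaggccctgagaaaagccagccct
LAMA3 internal start: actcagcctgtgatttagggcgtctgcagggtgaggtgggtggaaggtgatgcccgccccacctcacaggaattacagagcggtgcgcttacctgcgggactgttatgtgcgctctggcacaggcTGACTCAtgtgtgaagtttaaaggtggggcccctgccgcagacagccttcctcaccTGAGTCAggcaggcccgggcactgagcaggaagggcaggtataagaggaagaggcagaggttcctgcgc
LAMB1 start: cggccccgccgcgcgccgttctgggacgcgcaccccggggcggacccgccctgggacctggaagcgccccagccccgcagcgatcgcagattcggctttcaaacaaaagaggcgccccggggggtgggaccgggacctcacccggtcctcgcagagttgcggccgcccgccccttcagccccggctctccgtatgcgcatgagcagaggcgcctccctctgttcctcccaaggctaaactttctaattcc

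The AP-1 letters occur in the innermost LAMB3 window, 67 bases before the start, and at 125 and 69 bases before the internal LAMA3 start. They occur in 6.57% of all 35116 promoter windows of this length, and in none of the other windows of the basement membrane genes with an entry (8 of 9 genes, 10 windows). The letters GGAATG, the TEAD motif searched the same way, occur in 11.9% of all windows and in none of these 10. These matches describe the letters only. In base composition the LAMB3 windows were 54% to 64% G or C, near the median of 58% over all windows, while those of LAMC1 (79.6%), LAMA5 and HSPG2 (82.8% each) were far richer.

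LAMB3 had normalized counts of 1193 and 1195 in shControl_dish and 529 and 346 in shL1CAM_dish. On the slice it had 1029 and 1162 with control shRNA and 389 and 447 with L1CAM shRNA. The lowest of the 4 control libraries (1029) lay above the highest of the 4 knockdown libraries (529), so the groups overlapped in neither culture. The mean went from 1194 ± 1.11 to 437 ± 129 in the dish, 2.73-fold lower, and from 1096 ± 93.7 to 418 ± 41.1 on the slice, 2.62-fold lower (SD, n = 2). The log2 fold change of LAMB3 was -1.48 ± 0.21 (SE, 95% interval -1.95 to -1.01, limma adjusted p = 0.0416) in the dish. On the slice it was -1.39 ± 0.21 (95% interval -1.86 to -0.92, adjusted p = 0.0331). These comparisons share no library, though 1 fit gave the spread of both. Only 0.307% of the 13010 tested genes were called in the dish in either direction (0.215% as lower) and 0.646% on the slice (0.492% as lower), against 1 of the 8 tested basement membrane genes in each. The genes were chosen with earlier results of these data known, so nothing is read from that share.

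The size of the LAMB3 difference stayed between -1.78 and -1.17 in the dish and between -1.49 and -1.29 on the slice when any library was left out, but the calls did not. Without any 1 of the shControl or shL1CAM_dish libraries LAMB3 was no longer called in the dish (adjusted p = 0.104 to 0.428) or on the slice (0.0625 to 0.395), and without either shL1CAM_slice library it stayed called in both. With the transcript-length trend removed LAMB3 was at -1.47 (adjusted p = 0.00885) in the dish and -1.28 (adjusted p = 0.0125) on the slice. The labels name 1 shRNA per target, so an effect of L1CAM loss and an effect of that hairpin cannot be told apart.

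The other 7 tested basement membrane genes were not called in either knockdown comparison. LAMB1 had 5079 and 5697 in shControl_dish against 7629 and 4718 in shL1CAM_dish, so the knockdown libraries lay on both sides of the controls. LAMB1 on the slice had 5448 and 5496 with control shRNA and 6190.4 and 4814 with L1CAM shRNA, again on both sides. Its log2 fold changes were 0.16 (95% interval -0.36 to 0.67) in the dish and -0.00 (-0.52 to 0.51) on the slice. LAMB2, the beta chain of synaptic and kidney basement membranes, had 1866 and 2105 in shControl_dish, 2739 and 1594 in shL1CAM_dish, 1974 and 2193 in shControl_slice and 1873 and 2336 in shL1CAM_slice. Its groups overlapped in both cultures, with log2 fold changes of 0.08 (-0.47 to 0.63) and 0.01 (-0.54 to 0.56). These intervals leave out a fall of the size seen for LAMB3, and they do not show that LAMB1 and LAMB2 were equal between shRNAs.

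LAMA3, the alpha chain that partners LAMB3, had normalized counts of 378 and 380.1 in shControl_dish and 433 and 358 in shL1CAM_dish. On the slice LAMA3 had 297 and 323 with control shRNA and 378 and 229.6 with L1CAM shRNA. The groups overlapped in both cultures, and the log2 fold changes of LAMA3 were 0.06 (95% interval -0.47 to 0.59) and -0.07 (-0.60 to 0.46). The ratio of LAMB3 to LAMA3 per kilobase was accordingly 7.79 to 8.91 in the 4 control libraries and 2.39 to 4.82 in the 4 knockdown libraries. With the shorter LAMA3 transcript all these ratios would be lower by the same factor. LAMA5, the main alpha chain, differed by 0.02 (-0.35 to 0.39) in the dish and by -0.28 (-0.65 to 0.09) on the slice. AGRN differed by -0.14 in the dish and by -0.47 (95% interval -0.90 to -0.03, adjusted p = 0.257) on the slice. LAMC1 was at -0.34 (adjusted p = 0.393) and HSPG2 at -0.00 on the slice. Without replicate 1 of shL1CAM_slice, where the knockdown arm is replicate 2 alone, LAMC1 (-0.62, adjusted p = 0.00504) and LAMA3 (-0.43, adjusted p = 0.0288) were called on the slice. The median log2 fold change over the 8 genes was 0.07 in the dish and -0.18 on the slice, beside medians of 0.01 and -0.00 over all tested genes. With the transcript-length trend removed the slice median turned to 0.17, with AGRN at -0.18, LAMC1 at -0.03 and LAMA5 at 0.12. Of the 9 genes, 2 in the dish and 4 on the slice had both knockdown libraries below both controls, beside 25.6% and 24.1% of all tested genes. The 2 in the dish were LAMB3 and NID1, of which NID1 was not tested.

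**Figure D1:**
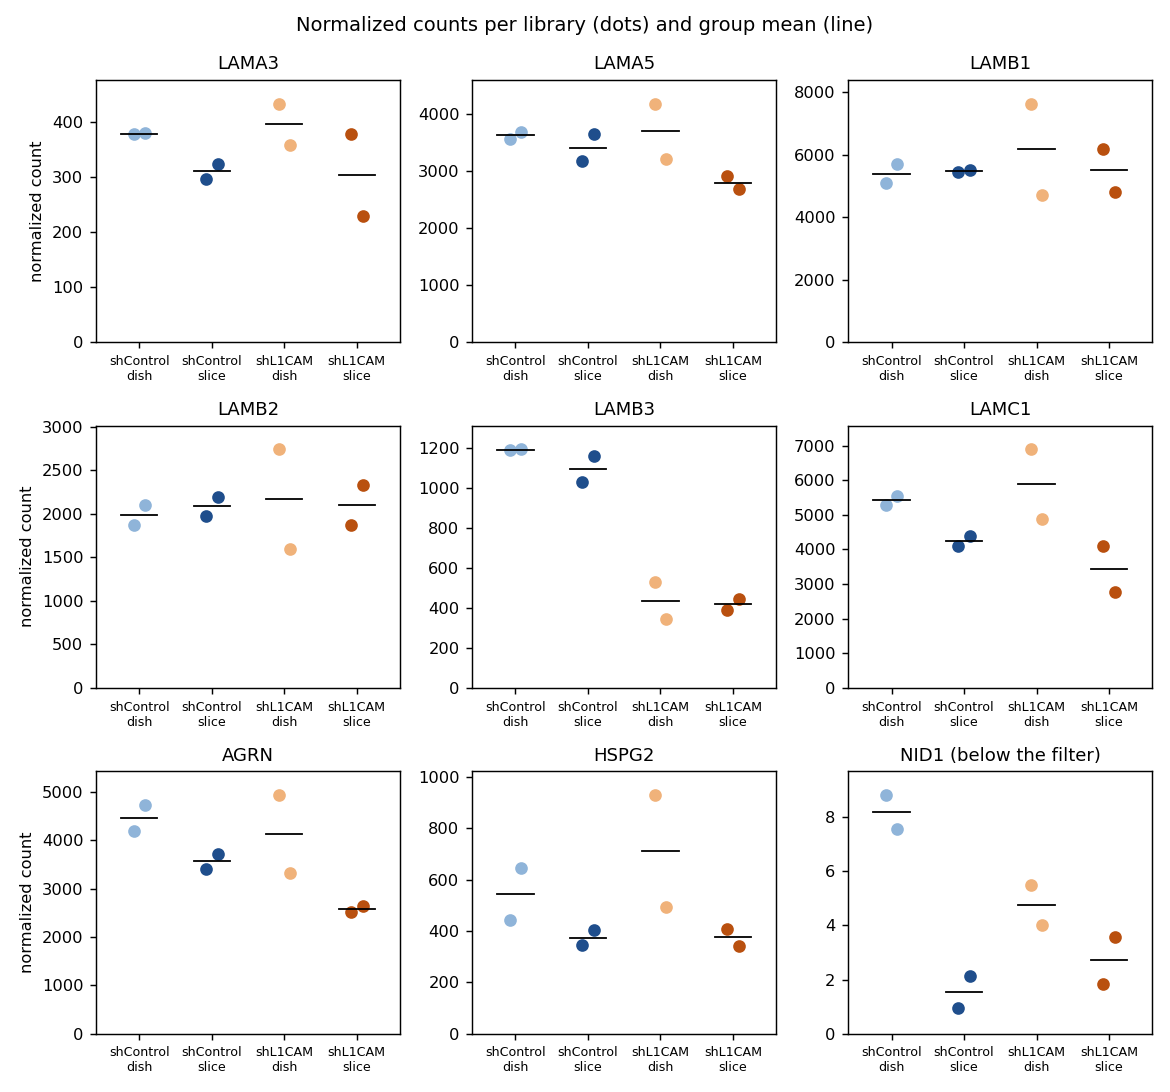
Normalized counts of the 9 basement membrane genes, 1 panel per gene with its own axis from 0, dots for the 8 libraries and lines for the group means. LAMB3 separates by shRNA (1029 and above against 529 and below), and NID1 is under 10 throughout. LAMC1, AGRN and HSPG2 have both slice libraries below both dish libraries within each shRNA. Of these differences only those of LAMC1 and AGRN with L1CAM shRNA were called.

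The culture was read as slice (48 h) against dish (0 h) for each shRNA. Medium, serum, substrate and time changed together here and cannot be told apart, and since these are bulk samples, fewer cells of a kind and less RNA per cell cannot be told apart either. With control shRNA none of the 8 tested basement membrane genes was called, where 14.8% of all tested genes were (8.03% as lower). Of the 8, 0 had an unadjusted limma p under 0.05, beside 4113 of all 13010 tested genes. edgeR and DESeq2 on the recovered reads also called 0, and limma called LAMC1 without either shL1CAM_slice library (-0.35, adjusted p = 0.0381 and 0.0376). With L1CAM shRNA LAMC1 and AGRN fell, 2 of 8, where 21.3% of all tested genes were called (11.2% as lower). A share of 2 in 8 is near the background in either direction, and nothing particular to these genes is read from it.

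LAMC1, the gamma chain of most laminins, had normalized counts of 5297 and 5539 in shControl_dish against 4097 and 4394 in shControl_slice. With L1CAM shRNA LAMC1 had 6891 and 4881 in the dish and 4093 and 2763 on the slice. Both slice groups lay wholly below their dish group. The log2 fold change was -0.35 ± 0.22 (SE, adjusted p = 0.305) with control shRNA and -0.79 ± 0.22 (limma adjusted p = 0.0351) with L1CAM shRNA. The shL1CAM mean was 1.72-fold lower on the slice, at 3428 ± 940.4 against 5886 ± 1421 (SD, n = 2).

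AGRN, whose product clusters acetylcholine receptors and binds dystroglycan, had 4188 and 4736 in shControl_dish and 3405 and 3721 in shControl_slice. With L1CAM shRNA AGRN had 4930.3 and 3323 in the dish and 2512 and 2639 on the slice. The 2 lowest of all 8 AGRN values were the shL1CAM_slice libraries, and slice and dish did not overlap for either shRNA. The log2 fold change was -0.32 ± 0.19 (adjusted p = 0.282) with control shRNA and -0.65 ± 0.19 (limma adjusted p = 0.0411) with L1CAM shRNA, where the means went from 4127 ± 1137 to 2575 ± 90.02.

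Both calls depended on single libraries. Without replicate 1 of shL1CAM_dish, the highest library for both genes, LAMC1 was at -0.54 (adjusted p = 0.232) and AGRN at -0.37 (adjusted p = 0.237). Without replicate 2 of shL1CAM_dish they were at -1.03 (adjusted p = 0.0632) and -0.94 (adjusted p = 0.0402). Without replicate 1 of shL1CAM_slice LAMC1 was at -1.07 and without replicate 2 at -0.50, and it was called in both, as was AGRN (-0.62 and -0.69). Without replicate 1 of shL1CAM_slice LAMA3 (-0.78, adjusted p = 0.000701) and LAMA5 (-0.45, adjusted p = 0.0165) were called too. Without any 1 of the 4 shControl libraries neither gene was called (adjusted p = 0.0708 to 0.0718 for LAMC1 and 0.0785 to 0.0854 for AGRN). With the transcript-length trend removed, LAMC1 was at -0.49 (adjusted p = 0.0268) and AGRN at -0.38 (adjusted p = 0.206).

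HSPG2, the proteoglycan of vascular and cartilage matrix, had 443 and 645 in shControl_dish against 347 and 403 in shControl_slice, and with L1CAM shRNA 929.8 and 495 in the dish against 408 and 343 on the slice. All 4 slice libraries lay below all 4 dish libraries. The log2 fold change of HSPG2 was -0.51 ± 0.30 (adjusted p = 0.271) with control shRNA and -0.86 ± 0.30 (adjusted p = 0.0699) with L1CAM shRNA, so limma called neither. DESeq2 called the latter (adjusted p = 0.0135), while the value with the transcript-length trend removed was -0.36 (adjusted p = 0.403). limma called HSPG2 without replicate 2 of shL1CAM_dish (-1.31, adjusted p = 0.0497) and without replicate 1 of shL1CAM_slice (-0.98, adjusted p = 0.00976).

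Among the alpha chains, LAMA5 had 3564 and 3692 in shControl_dish and 3175 and 3646 in shControl_slice, which overlapped. With L1CAM shRNA LAMA5 had 4186 and 3212 in the dish and 2909 and 2689 on the slice, which did not, at a log2 fold change of -0.39 ± 0.16 (adjusted p = 0.116). LAMA3 was at -0.29 (adjusted p = 0.431) and -0.42 (adjusted p = 0.226). With L1CAM shRNA and the transcript-length trend removed, LAMA5 turned to 0.04 and LAMA3 came to -0.01. None of the 3 beta chains was called: LAMB1 was at 0.02 and -0.14, LAMB2 at 0.07 and 0.00, and LAMB3 at -0.13 and -0.04 with control and L1CAM shRNA. The interval for LAMB3 with L1CAM shRNA was -0.50 to 0.43.

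Over the 8 tested genes the median slice difference was -0.21 with control shRNA and -0.40 with L1CAM shRNA, beside medians of 0.01 and -0.00 over all tested genes. With the transcript-length trend removed the medians were -0.18 and 0.01. Of the 9 genes, 6 had both slice libraries below both dish libraries with control shRNA and 5 with L1CAM shRNA. Both counts include NID1, which was not tested. Over all tested genes 37.3% and 28.7% were lower without overlap. Markers of other cells were summed where their mean over the dish libraries was under 10. The dish side of each sum was thus low by choice, which favours a higher slice side. Of 9 oligodendrocyte markers, 6 were low in the dish (MOG and OLIG2 at 0 throughout). Their summed normalized count was 0.00 to 3.66 in dish libraries and 16.7 to 27.7 in slice libraries. The corresponding sum over 12 of 15 endothelial and mural markers was 28.3 to 32.1 in dish and 24.8 to 39.3 in slice libraries, with KCNJ8 at 0 throughout. Single markers in that sum differed: PECAM1 had 0.00 to 0.94 in dish and 1.91 to 7.14 in slice libraries, all low values. CDH5 overlapped, at 1.83 to 7.83 in dish and 3.21 to 5.95 in slice libraries. For 5 of 7 astrocyte markers the sum was 3.01 to 5.50 in dish and 0.00 to 5.73 in slice libraries, with S100B at 0. For 10 of 11 microglia and macrophage markers it was 6.60 to 16.1 in dish and 5.73 to 16.6 in slice libraries. The sum over 3 of 11 neuron markers was 6.60 to 18.3 and 3.82 to 12.9, and over 3 of 6 fibroblast and meninges markers 1.89 to 6.85 and 0.00 to 2.38. The part of other cells in the slice differences was not tested.

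**Figure D2:**
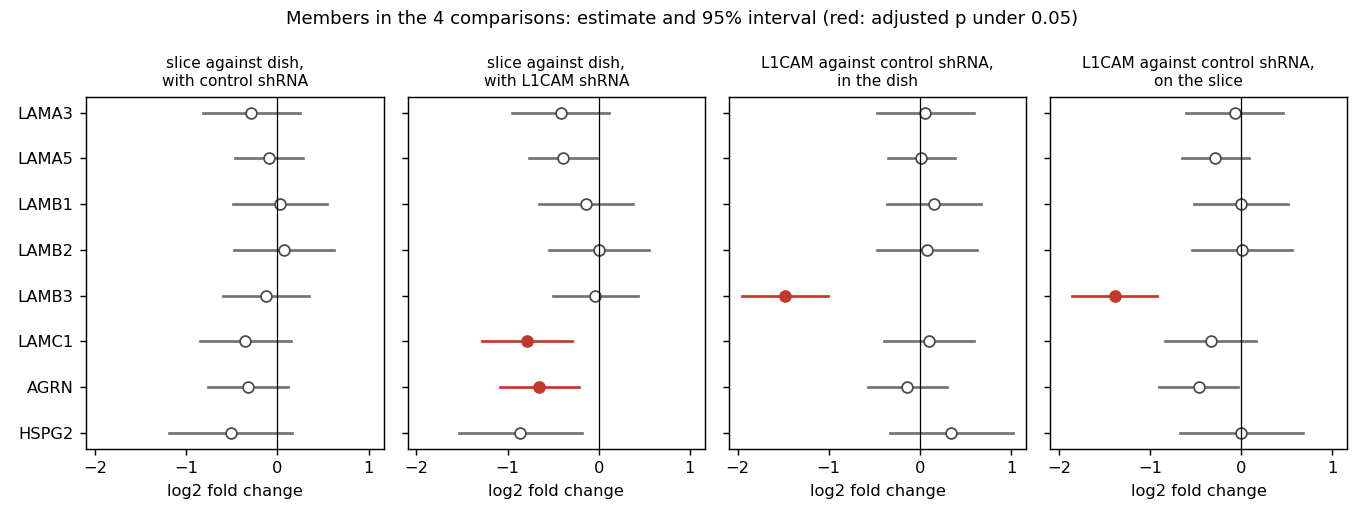
Log2 fold change of the 8 tested basement membrane genes in the 4 comparisons, with 95% limma intervals; filled red points passed an adjusted p of 0.05. LAMB3 stands alone in both knockdown panels at -1.48 and -1.39, and LAMC1 and AGRN are the red points of the slice comparison with L1CAM shRNA.

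Whether the slice difference depended on the shRNA was tested as an interaction. None of the 8 genes was called, 0 had an unadjusted p under 0.05, and 0 of all 13010 tested genes were called by limma (0%), with 162 at an unadjusted p under 0.05. edgeR and DESeq2 also called 0. The fall of LAMC1 and AGRN with L1CAM shRNA is therefore not shown to differ from their values with control shRNA: the interaction was -0.43 for LAMC1 and -0.33 for AGRN. LAMB3 had an interaction of 0.09 ± 0.29 (SE), so its knockdown difference was close in dish and slice, within an interval of -0.57 to 0.75. The exception among the libraries was LAMC1, called at -0.72 (adjusted p = 0.0176) without replicate 1 of shL1CAM_slice, a fit in which that group is replicate 2 alone and which calls 4136 genes.

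NID1, which bridges laminin and collagen IV, had a mean of 4.30 over the libraries, below the minimum of 10 for a test. Its values rested on 9 and 8 reads in shControl_dish against 1 and 2 in shControl_slice, and on 6 and 4 reads against 2 and 3 with L1CAM shRNA. In normalized counts NID1 had 8.80 and 7.54 in shControl_dish and 0.955 and 2.14 in shControl_slice, and 5.50 and 4.01 against 1.84 and 3.57 with L1CAM shRNA. The dish libraries were all above the slice libraries, but every slice value was at or under the level of 3 reads, which corresponds to 2.75 to 3.57 and is as much as a count of 0 can hide. These limits cover counting error only.

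Of 6 laminin and nidogen chains outside the 9 genes, 3 were tested, namely LAMA2, LAMC3 and NID2. LAMA2, the alpha chain of muscle and nerve basement membranes, had 67.5 and 76.4 in shControl_dish and 57.3 and 57.8 in shControl_slice, and 65.0 and 58.2 against 41.5 and 41.6 with L1CAM shRNA. Its slice libraries lay below its dish libraries, at log2 fold changes of -0.31 (limma adjusted p = 0.346) and -0.55 (adjusted p = 0.0945), so LAMA2 was not called. limma, edgeR and DESeq2 called 0 of the 3 chains in each of the 4 comparisons. LAMA2 on the slice with L1CAM shRNA was the 1 value with an unadjusted limma p under 0.05, beside 4873 of all 13010 tested genes there. LAMC3 was at -0.07 and -0.17 and NID2 at 0.55 and 0.34 for the slice against the dish.

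Among 28 other basement membrane components, 20 were tested. NTN4, a laminin-related netrin that binds laminin, fell with the knockdown in both cultures. It had 994 and 897 in shControl_dish, 254 and 229 in shL1CAM_dish, 970.3 and 964 in shControl_slice and 227 and 170.1 in shL1CAM_slice. Every knockdown library of NTN4 lay below every control library. The log2 fold change of NTN4 was -1.97 ± 0.18 (limma adjusted p = 0.00751) in the dish and -2.29 ± 0.18 (adjusted p = 0.00164) on the slice. Its slice call held with each library left out, and its dish call was lost without any 1 of the 4 dish libraries (adjusted p up to 0.201). PXDN, the peroxidase that crosslinks collagen IV, had 5324 and 5579 in shControl_dish and 2505 and 1805 in shL1CAM_dish (-1.36, adjusted p = 0.0538). On the slice PXDN had 8937 and 9029 with control shRNA and 4116 and 2531 with L1CAM shRNA. It fell there, at -1.48 ± 0.24 (adjusted p = 0.0423), and lost the call without any 1 library outside shL1CAM_slice (adjusted p up to 0.395). Over 13 other settings of the fit PXDN stayed called on the slice in 10 (adjusted p up to 0.479) and NTN4 in 12 (up to 0.323, with only the 4 libraries compared). Over all tested genes 0.215% fell in the dish and 0.492% on the slice, against 1 and 2 of the 20 components. The list was chosen with earlier results of these data known, so nothing is read from these shares. COL4A2 was at 1.17 (adjusted p = 0.152) in the dish and 1.02 (adjusted p = 0.151) on the slice.

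On the slice against the dish, 4 of the 20 components fell and 0 rose with control shRNA, where 8.03% of all tested genes fell. They were TGFBI (-1.14), COL7A1, the anchoring fibril collagen (-1.28), FRAS1 (-1.42) and COL4A4 (-1.35). In shControl_slice COL7A1 rested on only 18 and 19 reads and COL4A4 on 13 and 9. With L1CAM shRNA, where 11.2% of all tested genes fell, 7 components fell and 0 rose, among them TGFBI (-1.16), COL7A1 (-1.75), FRAS1 (-1.62) and COL4A1 (-1.23). COL7A1 had 18 and 15 reads in shL1CAM_slice. The median over the list was -0.18 with control and -0.76 with L1CAM shRNA, and 0.41 in the dish and -0.01 on the slice between shRNAs, beside medians of -0.00 to 0.01 over all tested genes. The calls with control shRNA were lost without any 1 of the 4 shControl libraries for TGFBI and COL7A1 (adjusted p up to 0.0806 and 0.16) and also without either shL1CAM_dish library for FRAS1 and COL4A4 (up to 0.19 and 0.236). With L1CAM shRNA TGFBI and COL7A1 stayed called with each library left out, and FRAS1 and COL4A1 lost the call without either shL1CAM_dish library (up to 0.124 and 0.135).

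Counts of called genes moved with the shL1CAM_slice libraries. Without replicate 1, 6086, 7503, 1436 and 6896 of all tested genes were called, and without replicate 2, the library that stood apart, 6109, 5039, 1437 and 607 of all tested genes were called for the slice with control shRNA, the slice with L1CAM shRNA, the knockdown in the dish and the knockdown on the slice. Without replicate 2 the components counted 2 rises and 7 falls, 1 and 9, 5 and 2, and 1 and 2 in these comparisons. In all 8 libraries they counted 0 and 4, 0 and 7, 0 and 1, and 0 and 2.

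Of 20 genes listed as receptors of laminin, agrin and perlecan, 19 were tested. The list also holds PLEC and DST, which encode linkers inside the cell and not receptors, and counts of receptors here include them. With control shRNA 4 of the 19 fell and 0 rose on the slice (14.8% of all tested genes were called and 8.03% fell), namely PLEC, the plectin of hemidesmosomes (-1.01), SDC1, a syndecan (-0.55), ITGB5 (-0.67) and DAG1, the dystroglycan precursor (-0.62). With L1CAM shRNA 6 fell and 1 rose (21.3% of all tested genes were called and 11.2% fell), including PLEC (-1.23), DAG1 (-0.84), DST (-1.37) and ITGA7 (-1.37). Over 13 other settings of the fit these falls ranged from -1.24 to -0.71 for PLEC, from -1.37 to -0.73 for DST and from -0.84 to -0.65 for DAG1. The PLEC call held in 13 of these settings and those of DST and DAG1 in 12 each. ITGA7 had only 14 and 13 reads in shL1CAM_slice. DAG1 had 4480.0 and 4302 in shControl_dish against 2832 and 2871 in shControl_slice, and 5007 and 3996 against 2828 and 2221 with L1CAM shRNA, with all slice libraries below all dish libraries. The medians of the list were -0.12 and -0.50. With control shRNA PLEC and ITGB5 lost the call without any 1 of the shControl libraries (adjusted p up to 0.135 and 0.255), and SDC1 and DAG1 also without either shL1CAM_dish library (up to 0.227 and 0.239). With L1CAM shRNA PLEC lost it without replicate 2 of shL1CAM_dish (0.0522), DAG1 without replicate 1 (0.103), and DST and ITGA7 without either (up to 0.118 and 0.109).

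Between shRNAs limma called 0 receptors, with 4 at an unadjusted p under 0.05 in the dish and 7 on the slice. Over all 13010 tested genes 1217 and 2384 had such a limma p. edgeR called 1 and 0, and DESeq2 2 and 4. Nearest to a call was SDC4, a heparan sulfate syndecan, at -0.73 (limma adjusted p = 0.0541) in the dish and -0.72 (adjusted p = 0.0518) on the slice. Without replicate 2 of shL1CAM_slice 1 receptor rose and 6 fell in the dish and 0 rose and 5 fell on the slice, and for the slice against the dish 5 rose and 7 fell with control shRNA and 1 rose and 7 fell with L1CAM shRNA.

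Dystroglycan binds laminin, agrin and perlecan through its sugars, and 14 of 16 genes for its glycosylation were tested. With L1CAM shRNA POMT1, an O-mannosyltransferase, fell (-0.66) on the slice and 0 rose, 1 of 14 where 21.3% of all tested genes were called, and POMT1 lost the call without any 1 library outside shL1CAM_slice (adjusted p up to 0.184). limma called 0 in the other comparisons, with 1, 1 and 4 at an unadjusted p under 0.05 for the slice with control shRNA and for the knockdown in the dish and on the slice. Over all 13010 tested genes 4113, 1217 and 2384 had such a limma p. edgeR and DESeq2 called 0 in each of these. Without replicate 2 of shL1CAM_slice 0 rose and 3 fell for the slice with control shRNA and 2 rose and 2 fell with L1CAM shRNA, while 1 rose and 0 fell with the knockdown in the dish and 0 rose and 0 fell on the slice. The medians of the list lay between -0.07 and 0.13.

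Agrin and perlecan carry heparan sulfate, and 24 of 28 genes for its synthesis and editing were tested. On the slice 2 rose and 4 fell with control shRNA, and 3 rose and 5 fell with L1CAM shRNA, with medians of 0.03 in both. Over all tested genes 14.8% and 21.3% were called in these comparisons, and nothing particular to the list is read from its counts. HPSE, the heparanase that cleaves heparan sulfate, had 581 and 572 in shControl_dish and 186 and 197.9 in shControl_slice, and 442 and 386 against 100.5 and 99.9 with L1CAM shRNA. Its slice libraries were all below its dish libraries, and HPSE fell at log2 fold changes of -1.58 (limma adjusted p = 0.00235) and -2.03 (adjusted p = 0.000763). SULF2, an extracellular sulfatase, fell as well (-1.996 and -1.04), as did PAPSS2, which makes the sulfate donor (-1.36 and -1.67). With control shRNA HPSE and SULF2 lost the call without replicate 1 of shControl_dish (0.0565 and 0.0577), and PAPSS2 without that library or either shControl_slice library (up to 0.0718). With L1CAM shRNA HPSE and PAPSS2 stayed called with each library left out, and SULF2 lost the call without either shL1CAM_dish library (up to 0.117).

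In the knockdown on the slice PAPSS2 (-1.36, limma adjusted p = 0.0207) and HPSE (-0.93, adjusted p = 0.0444) fell and SULF2 rose (1.45, adjusted p = 0.0378). All 3 lost the call without any 1 library outside shL1CAM_slice (adjusted p up to 0.26, 0.534 and 0.416). Over 13 other settings of the fit the HPSE call held in 6 (adjusted p up to 0.479), that of SULF2 in 10 and that of PAPSS2 in 12. In the dish limma called 0 of the 24, with 4 at an unadjusted p under 0.05, and edgeR and DESeq2 called 1 each. Over all 13010 tested genes 1217 had such a limma p there. Without replicate 2 of shL1CAM_slice 8 rose and 7 fell on the slice with control shRNA, 6 rose and 5 fell with L1CAM shRNA, 1 rose and 2 fell with the knockdown in the dish and 2 rose and 2 fell with the knockdown on the slice.

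Of 24 proteases that cut basement membrane proteins, 14 were tested. With L1CAM shRNA ADAMTS1 (-1.13), PRSS12, the neurotrypsin that cleaves agrin (-1.17), PLAU, the urokinase plasminogen activator (-0.86), and TLL2 (-1.32) fell on the slice and 0 rose, 4 of 14 where 11.2% of all tested genes fell. TLL2 had only 13 and 20 reads in shL1CAM_slice. ADAMTS1 lost the call without either shL1CAM_dish library (adjusted p up to 0.0579), PRSS12 without replicate 1 of shL1CAM_dish (0.114), and PLAU and TLL2 without any 1 library outside shL1CAM_slice (up to 0.171 and 0.148). limma called 0 for the slice with control shRNA and for the knockdown in the dish and on the slice, with 4, 2 and 4 at an unadjusted p under 0.05. Over all 13010 tested genes 4113, 1217 and 2384 had such a limma p in these comparisons. edgeR called 0, 1 and 0 there, and DESeq2 1, 1 and 0. Without replicate 2 of shL1CAM_slice 2 rose and 2 fell, 1 rose and 4 fell, 1 rose and 1 fell, and 0 rose and 1 fell in the 4 comparisons. The medians of the list lay between 0.02 and 0.20.

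**Figure D3:**
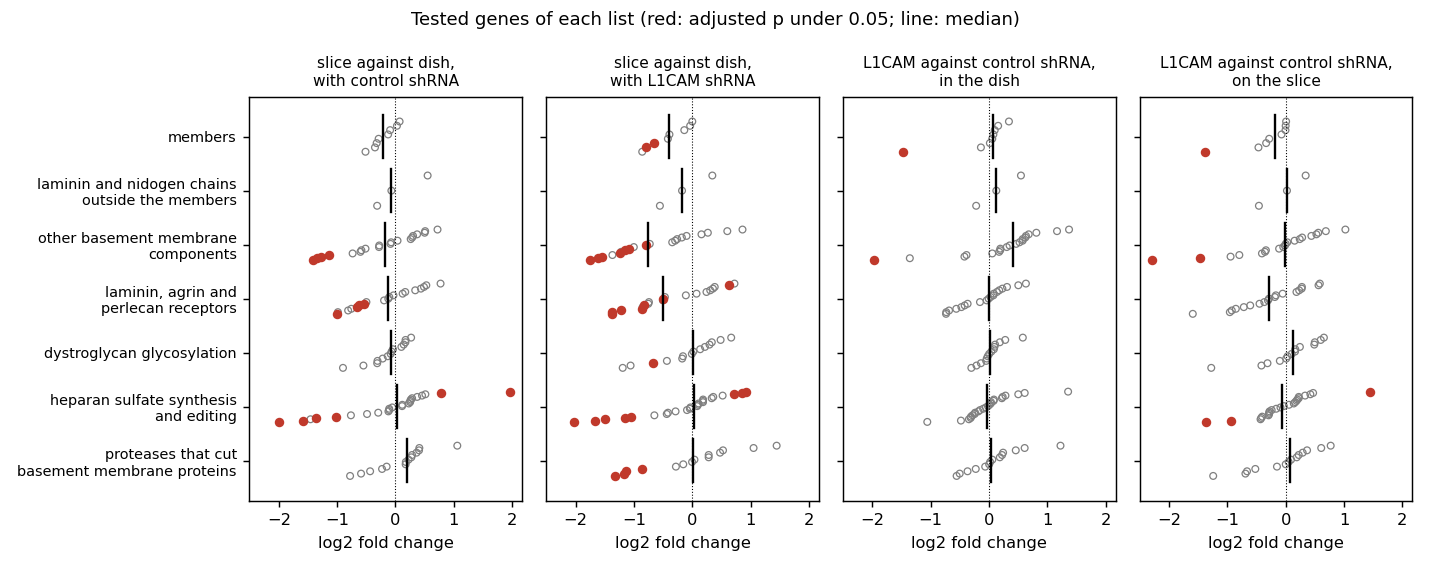
Log2 fold change of each tested gene in the 9 basement membrane genes and 6 related lists, in the 4 comparisons; red points passed an adjusted p of 0.05 and short lines are medians. Called genes are mostly falls on the slice, and the knockdown panels hold few, with NTN4 at -1.97 and -2.29 farthest out.

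Likeness of log2 levels over the 8 libraries was measured against 11285 genes (mean of at least 50), and TENC1 was among the 2 genes most like LAMB3, with a Pearson r of 0.981. The genes nearest to LAMC1 were ABCC1 (0.992) and POLR2A (0.984), and the gene nearest to AGRN was PTER (0.971). For HSPG2 they were GLT25D2 and C1GALT1C1 (0.989 each), for LAMA3 ATRN and BRD1 (0.984 each), and for LAMA5 LOC100507156 (0.969) and UNC5B (0.952). CHRD (0.959) and PARP12 (0.956) were nearest to LAMB2, and H6PD (0.931) was among the 2 nearest to LAMB1. These points share their library and scaling and fall into 4 groups. They also include replicate 2 of shL1CAM_slice, without removal of the transcript-length trend, so genes with long transcripts can look alike through that library. The values describe likeness over these libraries only.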

How the data were processed

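Per the labels' protocols, ribosome-bound RNA was made into libraries with a kit that does not mark strand. The authors deposited a normalized count signal for 23368 genes in 8 libraries, and 0 columns were left unused. Per the submitters' processing notes, FastQC 0.11.3, HTSeq 0.5.4 and DESeq2 were used with builds hg19 and GRCh37, and the aligner is not given in the sources used here. Every value (100%) was a whole multiple of 1 step per library within 1e-06, so whole reads were recovered.

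Log2 of the normalized count plus 1 was fitted with limma 3.58.1 (R 4.3.3, eBayes with trend, 4 group means, no replicate block) for the 13010 genes with a mean of at least 10. Tests were two-sided, Benjamini-Hochberg adjustment ran over all tested genes of a comparison, and an adjusted p under 0.05 is a call. Replicates are labelled biological, but nothing states that they came from separate cultures, so a p-value reflects only how far these libraries vary. Named genes were the 9 basement membrane genes, L1CAM, up to 4 genes per related list and comparison with the smallest p, and for each tested one of the 9 the 2 genes with a mean of at least 50 and the highest Pearson r with it. Some genes that these rules or lists hold are not reported here, and list counts leave them out. The 9 genes and the lists were chosen with earlier results of these data known.

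On the recovered reads, for slice against dish with control and L1CAM shRNA and for L1CAM against control shRNA in the dish and on the slice, edgeR 4.0.16 called 1990, 2891, 77 and 86 genes and DESeq2 1.42.0 called 2347, 3184, 183 and 339, against 1930, 2775, 40 and 84 with limma. Transcript lengths and overlaps came from GENCODE v29, with a length for 12502 tested genes (96.1%), and promoter sequences from RefSeq, matched by symbol. Without strand, LAMA5 and its antisense gene LAMA5-AS1, and HSPG2 and LDLRAD2 on the opposite strand, cannot be told apart where they overlap, and AGRN overlaps AL645608.5. Further alternatives were other pseudocounts (10, 0.25), filters, scalings, a replicate block, library weights, robust eBayes, the compared libraries alone, a loess removal of the transcript-length trend and each library left out. The counts of the related lists without replicate 2 of shL1CAM_slice, the alternatives for genes of the lists and the shorter LAMA3 transcript were added after seeing the data. Scripts were tested on simulated data.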

Additional observations from a re-analysis of the deposited data

How the results depend on the processing

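Of the 9 basement membrane genes, 0 were called with control shRNA on the slice against the dish. That count was 1 with no filter (NID1), 4 in a fit of only the 4 libraries compared and 4 with library weights (LAMA3, LAMC1, AGRN and HSPG2), and 0 to 1 with a library left out. With L1CAM shRNA the count of 2 became 0 with no filter, 1 with upper-quartile scaling, 0 with only the 4 libraries, 0 with library weights, 1 with the transcript-length trend removed, and 0 to 5 with a library left out. For L1CAM against control shRNA in the dish the count of 1 became 0 with no filter (LAMB3 limma adjusted p = 0.0872), 0 at a minimum mean of 50 (0.0531), and 0 to 1 with a library left out. On the slice the count of 1 became 0 with no filter (LAMB3 at 0.0712), 0 with only the 4 libraries (0.386), and 0 to 3 with a library left out. The interaction count of 0 became 0 to 1 with a library left out. Where a library is left out its partner alone stands for the group and is assumed to vary like the other groups.

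Across all genes, the counts in the 4 comparisons were 1529, 2313, 16 and 15 with no filter, 1805, 2610, 14 and 40 at a minimum mean of 50, 6808, 510, 824 and 0 with only the 4 libraries, 7032, 975, 1011 and 48 with library weights and 3465, 4075, 216 and 358 with the length trend removed. They were 1930, 2775, 40 and 84 in the fit reported. In the dish knockdown they were 62 with a pseudocount of 10, 77 with edgeR and 183 with DESeq2, which gave 339 on the slice. With a library left out they ran from 7 to 6109, 341 to 7503, 0 to 1437 and 4 to 6896, and the interaction from 0 to 4136. Of 832 recomputed values of the basement membrane genes, 779 kept their side of the threshold and their direction, or changed sign without ever being called (59), 35 lost a call, 18 gained one and 0 called values changed direction. The cause was not tested. Correlations of replicate differences between groups ran from -0.377 to 0.194, so the numbers were not taken as pairs. With the replicate number as a block the counts were 0, 2, 1 and 1 and the same genes were called, and LAMB3 was at -1.48 and -1.39.

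Without division by length the shControl_dish means were 379 for LAMA3, 3628 for LAMA5, 5388 for LAMB1, 1986 for LAMB2, 1194 for LAMB3, 5418 for LAMC1, 4462 for AGRN, 544 for HSPG2 and 8.17 for NID1, an order in which LAMC1 comes first. The internal-start transcript gave LAMA3 66.8 per kilobase. Depth limits NID1, at 1 to 9 reads per library.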
